A study of Mus musculus with 21 samples.

Results

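A set of 10 genes of drug and steroid handling was followed through intestinal Lgr5 cells of mice on 7 dietary or genetic regimes. The genes were chosen by name, as candidate targets of the vitamin D receptor or of PXR together with the gene for PXR itself, and are 10 of the 37310 genes in the deposited tables. They comprise 7 cytochrome P450 genes (Cyp3a11, Cyp3a13, Cyp3a25, Cyp2c55, Cyp2c65, Cyp2c66 and Cyp2b10), the efflux pump gene Abcb1a, the conjugating enzyme gene Ugt2b5 and the receptor gene Nr1i2. All 10 names were found and all 10 passed the filter on low counts, among 16050 genes tested.

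The study asked how diet shapes the RNA of intestinal stem cells, and sequenced bulk RNA of sorted Lgr5-EGFP cells in 21 libraries, 3 for each group. Every mouse carried Lgr5EGFPcre-ERT2, an allele that puts a fluorescent protein and an inducible Cre under the control of the stem cell gene Lgr5, and was 3 months old. AIN_VdrKO mice ate AIN76A and are labelled as vitamin D receptor knockouts, with no account of the deleted part of the gene or of the cells in which it is deleted. NWD1VitD mice ate NWD1 with vitamin D at 2.3 IU/g, and NWD1Ca mice ate NWD1 with calcium at 7.0 mg/g; the labels write these doses per g of body weight. AINlowVitD mice ate the AIN diet with vitamin D at 0.11 IU/g. NWD2 and NWD1 are further diets, whose makeup the labels leave undescribed, and AIN mice ate AIN76A, a purified control diet. NWD1Ca held females only, AIN_VdrKO males only and the others both sexes, with 11 male and 10 female libraries in all. The labels do not say whether a library is 1 mouse or a pool, so p-values measure the spread between libraries.

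PXR, the product of Nr1i2, is a nuclear receptor that binds many drugs, steroids and bile acids, pairs with RXR and switches on genes for their removal. Removal runs in steps: cytochromes P450 oxidise a compound, UDP-glucuronosyltransferases such as that of Ugt2b5 attach glucuronic acid, and pumps such as P-glycoprotein, the product of Abcb1a, push it back into the gut lumen. The vitamin D receptor also pairs with RXR, reads related DNA elements made of repeated AGGTCA-like half-sites, and is known to raise CYP3A genes in intestinal cells. In the gut this system is strongest in absorptive enterocytes of the villus, the first cells to meet what is eaten.

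The stretches of 250 bases before the transcription start are shown for 4 genes, because half-sites of nuclear receptors in them differ between close relatives (Cyp3a11 and Cyp3a25), because Abcb1a was called in more comparisons than any other of the 10 genes, and because Cyp2c55 had the largest fitted change. They are RefSeq sequences of build GRCm38.p6, each read in the direction of its gene. Capitals mark the half-sites AGGTCA and AGTTCA on either strand, and both units of any repeat named in the next paragraph.
Cyp3a11 (chr5:145879855-145880104, minus strand): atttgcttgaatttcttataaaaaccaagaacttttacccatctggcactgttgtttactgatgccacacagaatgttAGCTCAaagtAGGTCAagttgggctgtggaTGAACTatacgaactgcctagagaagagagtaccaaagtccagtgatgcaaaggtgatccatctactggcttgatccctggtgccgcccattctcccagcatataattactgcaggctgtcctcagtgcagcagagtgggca
Cyp3a25 (chr5:146009619-146009868, minus strand): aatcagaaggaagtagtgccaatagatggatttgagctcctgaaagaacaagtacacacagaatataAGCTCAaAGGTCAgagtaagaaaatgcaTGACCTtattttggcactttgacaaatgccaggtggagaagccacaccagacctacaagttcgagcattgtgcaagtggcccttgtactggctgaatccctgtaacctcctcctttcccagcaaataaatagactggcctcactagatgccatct
Abcb1a (chr5:8566841-8567090, plus strand): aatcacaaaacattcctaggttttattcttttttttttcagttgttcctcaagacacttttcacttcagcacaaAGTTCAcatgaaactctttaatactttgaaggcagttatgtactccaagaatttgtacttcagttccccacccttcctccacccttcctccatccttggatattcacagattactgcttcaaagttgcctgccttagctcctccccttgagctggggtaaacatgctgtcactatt
Cyp2c55 (chr19:39006769-39007018, plus strand): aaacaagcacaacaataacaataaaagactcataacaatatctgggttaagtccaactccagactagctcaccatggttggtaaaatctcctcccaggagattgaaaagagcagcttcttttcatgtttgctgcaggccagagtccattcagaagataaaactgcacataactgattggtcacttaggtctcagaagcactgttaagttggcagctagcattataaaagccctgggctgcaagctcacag

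Of the 10 promoters, 4 held a half-site. In Cyp3a11, AGGTCA begins 162 bases before the start and forms, with AGCTCA, a direct repeat of AGNTCA with a gap of 4 bases (DR4, a spacing that PXR can read), beginning 172 bases before the start. In Cyp3a25 the same units, AGCTCA and AGGTCA, are 1 base apart (DR1, beginning 183 bases before the start), a motif added to the search after these sequences had been read. Abcb1a has AGTTCA 176 bases before the start and Ugt2b5 has AGGTCA 22 bases before it, both alone. No DR3 (the same repeat with a gap of 3) or ER6 (TGANCT and AGNTCA with a gap of 6) occurred in any of the 10, and both strands were searched for every motif. Among 32851 promoters of the same length, 14.0% held AGGTCA, 11.8% AGTTCA, 0.183% DR1, 0.103% DR4, 0.0517% DR3 and 0.0304% ER6. The promoters of Cyp2c65 and Cyp2c66 matched at 94.1% of aligned bases, and those of Cyp3a11 and Cyp3a25 at 79.4%.

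Gene counts ran between 19889795 and 115435120 per library. The first principal component, with 43.9% of the variance, put NWD1VitD, NWD1Ca and AINlowVitD (between -79.2 and -71.2) opposite NWD2, NWD1 and AIN (between 38.6 and 104), with AIN_VdrKO between them at -43.8, -3.83 and 21.9. Comparisons across these 2 sets of libraries, namely NWD1VitD and NWD1Ca against NWD1 and AINlowVitD against AIN, carry the set as well as the diet, and the 2 cannot be told apart. The libraries labelled AIN_VdrKO lay apart from both AIN (38.6 to 97.6) and AINlowVitD (-79.2 to -73.0) on this component, so in their comparisons genotype and library set cannot be told apart either. AIN 1, AIN 2 and NWD1 1 lay at 38.6, 40.2 and 42.6, apart from the rest of their set. Spike-in RNAs took 24.7% and 20.4% of counts in NWD1 1 and NWD1 2. Lgr5 was present in every library, at 9.49 to 87.2 CPM (counts scaled with TMM factors to a common library size), and so was the enterocyte sucrase gene Sis, at 88.7 to 3981 CPM. Vdr itself was read at 297, 482 and 247 CPM in the libraries labelled AIN_VdrKO, against 338, 373 and 746 CPM in AIN (fitted log2 difference -0.56, adjusted p = 0.348), so that counts over the whole gene did not show its loss. A count over the whole gene does not test a deletion of part of it. The calcium-binding protein gene S100g, a known target of the receptor, was at 46.0, 9.48 and 4.44 CPM in the libraries labelled AIN_VdrKO and at 101, 106 and 43.2 CPM in AIN (fitted log2 difference -1.75, edgeR, adjusted p = 0.253). In CPM library 1 overlapped AIN, while in TPM the groups were apart, at 131, 32.4 and 21.5 in the libraries labelled AIN_VdrKO and 371, 423 and 225 in AIN.

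Per unit of transcript length (TPM), Cyp3a13 led. This CYP3A gene, known for its expression outside the liver, had the highest TPM of the 10 genes in 15 of 21 libraries, and Cyp2c65, a CYP2C gene of the gut, in the other 6. Cyp2c55, also a CYP2C gene of the gut, was lowest in 16. Every gene but Cyp2c55 had its highest mean TPM in NWD2. In CPM this held only for Cyp3a25 and Ugt2b5. The highest mean CPM was in AIN for Cyp3a11 (174 in AIN, 141 in NWD2), Cyp3a13, Cyp2c65 and Nr1i2. It was in AINlowVitD for Abcb1a, and in NWD1VitD for Cyp2c55, Cyp2c66 and Cyp2b10. Cyp3a11, the main drug-oxidising CYP3A gene of mouse liver, was at 8.98, 275 and 167 TPM in NWD2, so that 1 group held the highest library of the series and one below most others. NWD2 1 was the low library there.

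Along the order of group means, most neighbouring groups overlapped. For Cyp3a13 the mean TPM was 297 ± 226 in NWD2, 279 ± 71.1 in AIN, 129 ± 86.3 in AIN_VdrKO, 94.9 ± 34.1 in AINlowVitD, 74.1 ± 25.2 in NWD1VitD, 69.1 ± 60.9 in NWD1 and 61.3 ± 28.4 in NWD1Ca (SD, n = 3 each), and the step below AIN was the only one without overlap between neighbours. Cyp3a25, a CYP3A gene of liver and gut, was at 119 ± 101 in NWD2 and 64.6 ± 5.03 in AIN, then at 35.7 ± 13.4 or less in the rest, again with a gap below AIN. In CPM the gap of Cyp3a25 closed, at 41.0, 97.4 and 116 in NWD1VitD and 76.2, 75.9 and 49.9 in AIN. That of Cyp3a13 closed too, with 371 CPM in AIN_VdrKO 2 and 366 CPM in AIN 2. The step below AIN was also without overlap for Cyp2c65 (117 ± 48.9 TPM in NWD1, 188 ± 23.7 TPM in AIN) and for Ugt2b5 (17.7 ± 5.86 TPM in NWD1Ca, 42.3 ± 11.2 TPM in AIN). For Cyp2c65 the groups nearly touched, with 165.5 TPM in NWD1 2 and 166.2 TPM in AIN 1. For Ugt2b5 the libraries overlapped in CPM, at 43.0 in NWD1Ca 1 and 32.7 in AIN 2. The order for Cyp2c55 began with NWD1 (20.998 ± 14.5 TPM) and ended with a gap between AIN_VdrKO (0.241 ± 0.168) and AINlowVitD (1.92 ± 1.44). Neighbours always overlapped for Cyp3a11, Cyp2c66, Cyp2b10, Abcb1a and Nr1i2. Nr1i2 had the narrowest range of the 10 genes, 6.51-fold between its lowest library (7.41 TPM) and its highest (48.3 TPM). All its levels in NWD1VitD, NWD1Ca and AINlowVitD lay between 7.41 and 10.6 TPM. Against the TMM scale, the TPM scale shifted the median log2 change of all genes by -1.41 in NWD1VitD against NWD1, -1.17 in NWD1Ca against NWD1, -0.996 in AINlowVitD against AIN, -0.22 in AIN_VdrKO against AIN, 0.76 in AIN_VdrKO against AINlowVitD and 0.41 in NWD1 against AIN, so TPM orders of groups carry these shifts. In NWD2 against AIN the shift was 0.39.

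**Figure D1:**
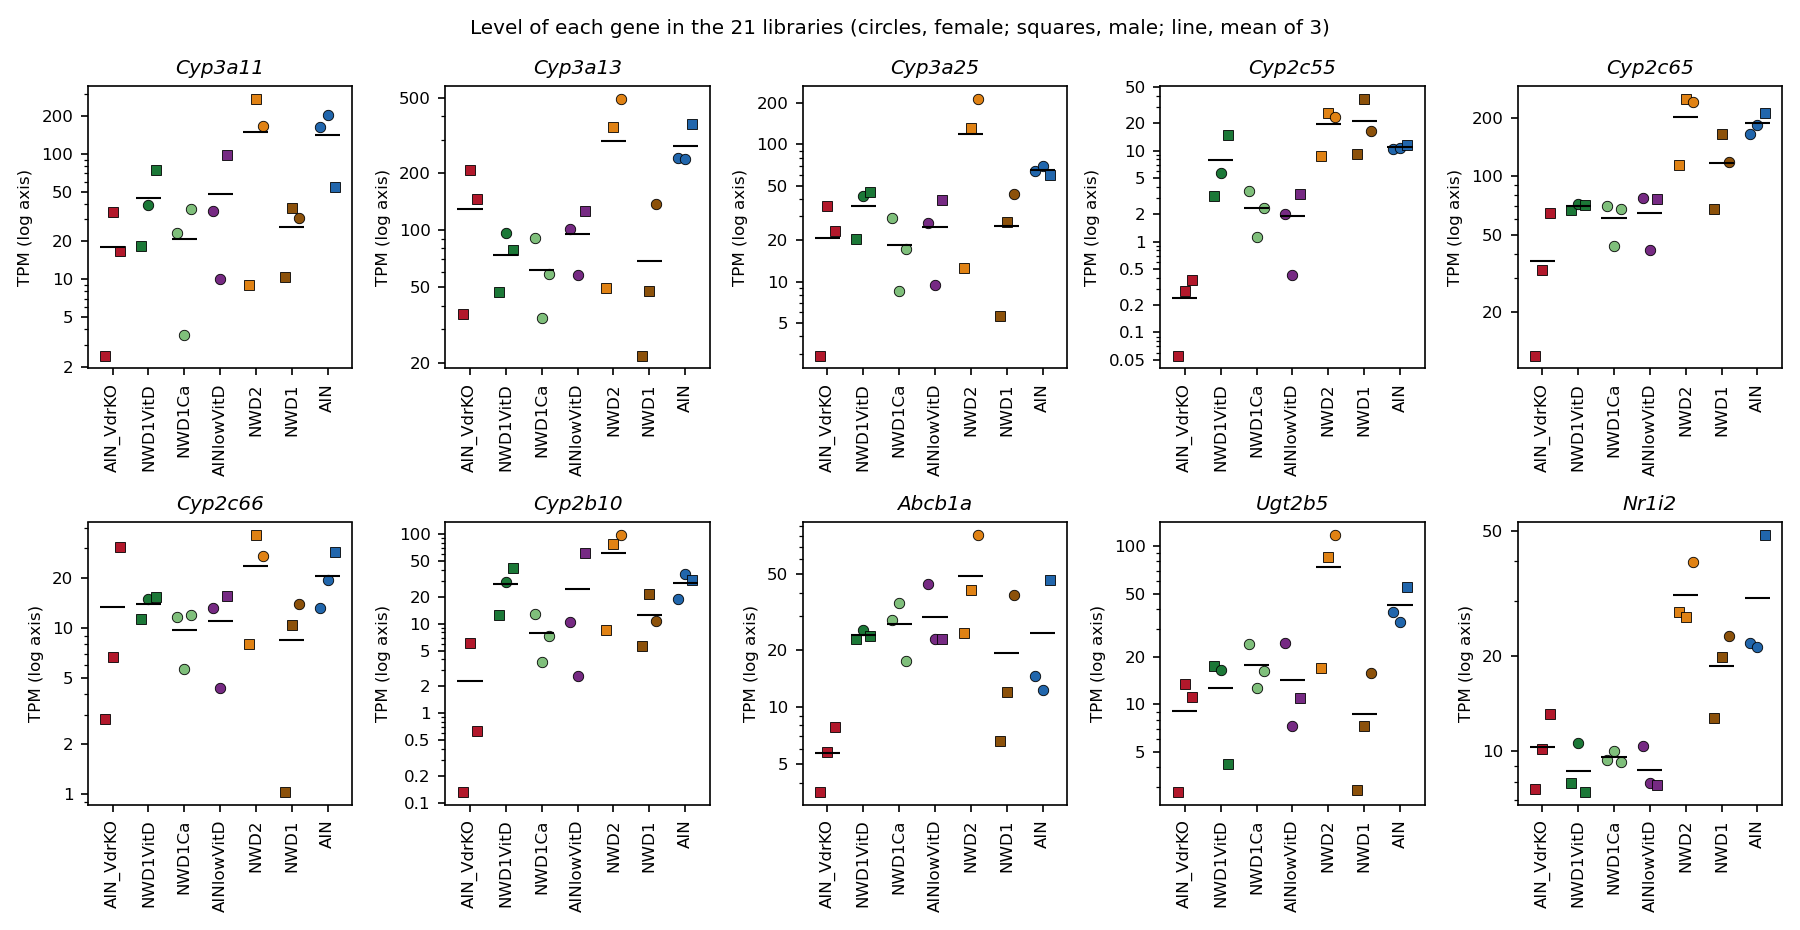
TPM of each gene (vertical log axis) in every library, by group; circles are female and squares male libraries, and lines are means of 3. Cyp2c55 in the libraries labelled AIN_VdrKO (0.0555, 0.286 and 0.382 TPM) sits below all other libraries, and NWD2 1 (8.98 TPM) lies far below NWD2 2 (275 TPM) for Cyp3a11.

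Against AIN, the libraries labelled AIN_VdrKO had lower RNA for 4 of the 10 genes and higher RNA for none. These were 2 cytochromes of the CYP2C family, the pump gene Abcb1a and the receptor gene Nr1i2. Among all genes tested 12.5% were called in this comparison, and 5.09% of all genes tested as lower. All 10 fitted changes were negative, with a median of -1.62 against -0.01 over all genes tested. The loss of Vdr in these libraries rests on their label, since the deleted part of the gene is not described.

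Cyp2c55, which oxidises fatty acids such as arachidonic acid, was at 0.0808, 0.348 and 0.327 CPM in the libraries labelled AIN_VdrKO and at 11.8, 11.2 and 9.26 CPM in AIN. These are 2, 8 and 46 reads in the libraries labelled AIN_VdrKO, against 594, 1058 and 432 reads in AIN. The groups lie far apart, and the AIN libraries are close together. The log2 fold change was -5.65 ± 0.91 (SE; edgeR quasi-likelihood test, adjusted p = 0.000616), and it stayed past the threshold under all 16 alternatives run. Cyp2c65 was at 16.8, 38.7 and 53.6 CPM in the libraries labelled AIN_VdrKO and at 183, 186 and 165 CPM in AIN, without overlap. Its log2 fold change was -2.29 ± 0.46 (edgeR, adjusted p = 0.00348), and a fit to these 2 groups alone gave -2.15 with adjusted p = 0.0586.

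Nr1i2 was at 14.2, 15.8 and 14.4 CPM in the libraries labelled AIN_VdrKO and at 32.0, 28.5 and 49.4 CPM in AIN. The highest AIN value is that of AIN 3, the only male library of the group. The log2 fold change was -1.23 ± 0.27 (edgeR, adjusted p = 0.00587); without AIN 3 it was -0.67 (adjusted p = 0.163), and without AIN 1, AIN 2 and NWD1 1 it was -1.81 (adjusted p = 0.00022). Abcb1a was at 14.3, 19.4 and 18.4 CPM in the libraries labelled AIN_VdrKO and at 45.7, 35.3 and 102 CPM in AIN, with AIN 3 again highest. The log2 fold change of -1.62 ± 0.51 (edgeR, adjusted p = 0.0441) was close to the threshold and shrank to -0.26 (adjusted p = 0.828) without AIN 3. It also missed the threshold without any one of the 3 libraries labelled AIN_VdrKO (adjusted p = 0.135, 0.078 and 0.0864), and by limma on log2(TPM + 1) (-1.43, adjusted p = 0.125), on log2(TPM + 0.1) (0.112) and on log2(TPM + 1) with no filter (0.253). Without AIN 1, AIN 2 and NWD1 1 it was -2.63 (edgeR, adjusted p = 0.00107). All libraries labelled AIN_VdrKO are male.

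Other genes had large fitted changes that missed the threshold in the edgeR fit. Cyp2b10, the classic target of the receptor CAR (Nr1i3), was at 0.202, 7.83 and 0.569 CPM in the libraries labelled AIN_VdrKO and at 22.9, 39.9 and 26.3 CPM in AIN, without overlap (log2 fold change -3.80 ± 1.28, edgeR, adjusted p = 0.0585). Library 2 stands well above the other two, and without it the value was -6.45 (adjusted p = 0.00915). Cyp2b10 was also called by DESeq2 (-3.80, adjusted p = 0.0216), by limma on log2(TPM + 1) (-3.80, 0.0228) and log2(TPM + 0.1) (-4.99, 0.0145), and by edgeR with no term for sex (-3.43, 0.0473) and with no filter on low counts (-3.82). Cyp3a11 was at 4.20, 49.2 and 17.0 CPM in the libraries labelled AIN_VdrKO and at 219, 251 and 51.3 CPM in AIN, where AIN 3 nearly meets the highest of them (-3.07 ± 1.29, edgeR, adjusted p = 0.127). Ugt2b5 (-1.62), Cyp3a25 (-1.17), Cyp3a13 (-0.60) and Cyp2c66 (-0.56) had adjusted p-values of 0.116 to 0.679. In 8 of the 10 genes, all but Cyp3a13 and Cyp2c66, every library labelled AIN_VdrKO lay below every AIN library in CPM, as did 14.9% of all genes tested.

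Markers of enterocytes were also lower in sum. Their summed level over 29 genes, none of them at 0, was 20395 to 28435 TPM in the libraries labelled AIN_VdrKO and 39995 to 49539 TPM in AIN, and 3 of the 29 fell (median log2 fold change -0.96). Fewer cells of a type and less RNA per cell cannot be told apart in bulk samples. Set against that sum, Cyp2c55 was at 0.00272 to 0.0145 per 1000 in the libraries labelled AIN_VdrKO and 0.21 to 0.289 in AIN, without overlap. Cyp2c65 was at 0.585 to 2.45 in the libraries labelled AIN_VdrKO and 3.35 to 5.31 in AIN, and Cyp2b10 at 0.00642 to 0.214 in the libraries labelled AIN_VdrKO and 0.384 to 0.907 in AIN, so that these also stayed apart. Lower and apart as well were Cyp3a11 (at most 1.21 in the libraries labelled AIN_VdrKO, at least 1.36 in AIN), Cyp3a25 (1.25 and 1.295) and Ugt2b5 (0.476 and 0.779). Abcb1a (0.175 to 0.297 in the libraries labelled AIN_VdrKO, 0.295 to 1.16 in AIN) and Nr1i2 (0.357 to 0.498 in the libraries labelled AIN_VdrKO, 0.444 to 1.201 in AIN) overlapped on this scale. So did Cyp3a13 and Cyp2c66. Stem cell markers summed to 2202 to 4694 TPM in the libraries labelled AIN_VdrKO and 1650 to 4388 TPM in AIN, and 5 of 15 rose. Paneth cell markers summed to 31805 to 99866 TPM in the libraries labelled AIN_VdrKO and 14911 to 20110 TPM in AIN, and 2 of 10 rose. Their part in the results was not tested.

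Against AINlowVitD, a comparison added after the data had been seen, the libraries labelled AIN_VdrKO had lower RNA for 3 of the 10 genes, Abcb1a, Cyp2c55 and Cyp2c65, and higher RNA for none. Of all genes tested 3.07% were called, 2.38% as lower. Libraries were apart and lower in CPM for 4 of the 10 genes, these and Nr1i2, against 12.8% of all genes. It shares the libraries labelled AIN_VdrKO with the comparison before. Abcb1a was at 14.3, 19.4 and 18.4 CPM in the libraries labelled AIN_VdrKO and at 271, 132 and 143 CPM in AINlowVitD, with a wide gap (log2 fold change -3.05 ± 0.56, edgeR, adjusted p = 0.00802). Cyp2c55 was at 0.0808, 0.348 and 0.327 CPM in the libraries labelled AIN_VdrKO and at 4.48, 0.908 and 7.57 CPM in AINlowVitD (-4.23 ± 0.86, edgeR, adjusted p = 0.0118). Cyp2c65 was at 16.8, 38.7 and 53.6 CPM in the libraries labelled AIN_VdrKO and at 167, 84.4 and 168 CPM in AINlowVitD, apart in CPM and overlapping in TPM (-1.95 ± 0.45, edgeR, adjusted p = 0.0225). Without AINlowVitD 3, Cyp2c55 (-3.52, adjusted p = 0.122) and Cyp2c65 (-1.68, adjusted p = 0.204) were no longer called. Leaving out AINlowVitD 1 or library 2 labelled AIN_VdrKO also ended the call of Cyp2c65 (adjusted p = 0.0673 and 0.0731), and leaving out library 3 labelled AIN_VdrKO that of Cyp2c55 (0.0643). Cyp2b10 had the largest fitted change, -4.53 ± 1.24, with adjusted p = 0.0531 and libraries that overlapped. Nr1i2 was at -0.64 ± 0.28 (edgeR, adjusted p = 0.208). The summed enterocyte markers were 20395 to 28435 TPM in the libraries labelled AIN_VdrKO and 27114 to 84910 TPM in AINlowVitD, and 1 of 29 fell; Abcb1a per 1000 of that sum was 0.175 to 0.297 in the libraries labelled AIN_VdrKO and 0.267 to 0.845 in AINlowVitD, overlapping.

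**Figure D2:**
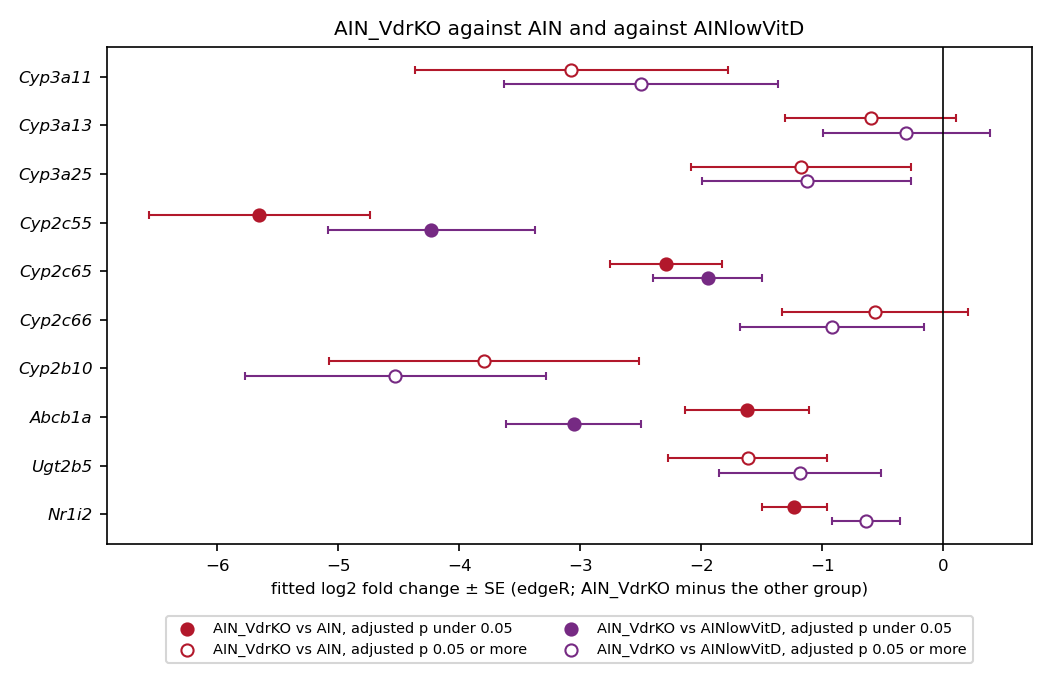
Fitted log2 fold change ± SE (horizontal axis) of each gene in the libraries labelled AIN_VdrKO against AIN (red) and against AINlowVitD (purple); filled points have an adjusted p under 0.05. Cyp2c55 lies at -5.65 and -4.23, and every point lies below 0.

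Ratios between 2 genes of the same library do not depend on how libraries are scaled. Cyp2c55 over Cyp2c65 in TPM was 0.00465, 0.0087 and 0.0059 in the libraries labelled AIN_VdrKO and 0.0627, 0.0581 and 0.0544 in AIN. In no other library was it below 0.0104, the value of AINlowVitD 2. Cyp2c66 over Cyp2c65 was higher, at 0.238, 0.203 and 0.470 in the libraries labelled AIN_VdrKO and 0.0797, 0.106 and 0.134 in AIN. Both ratios were without overlap, and the exact two-sided permutation p was 0.1, the smallest that 3 against 3 can give (0.2 after adjustment over the 4 ratios tested). Cyp3a11 over Cyp3a13 was 0.0683, 0.167 and 0.116 in the libraries labelled AIN_VdrKO and 0.688, 0.866 and 0.151 in AIN, overlapping through AIN 3 (exact permutation p = 0.2). Cyp3a25 over Cyp3a13 was 0.0806, 0.173 and 0.161 in the libraries labelled AIN_VdrKO, against 0.269, 0.294 and 0.166 in AIN, also overlapping (exact permutation p = 0.2). The highest ratios of Cyp2c55 over Cyp2c65 by group mean were those of NWD1, at 0.137, 0.225 and 0.139.

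**Figure D3:**
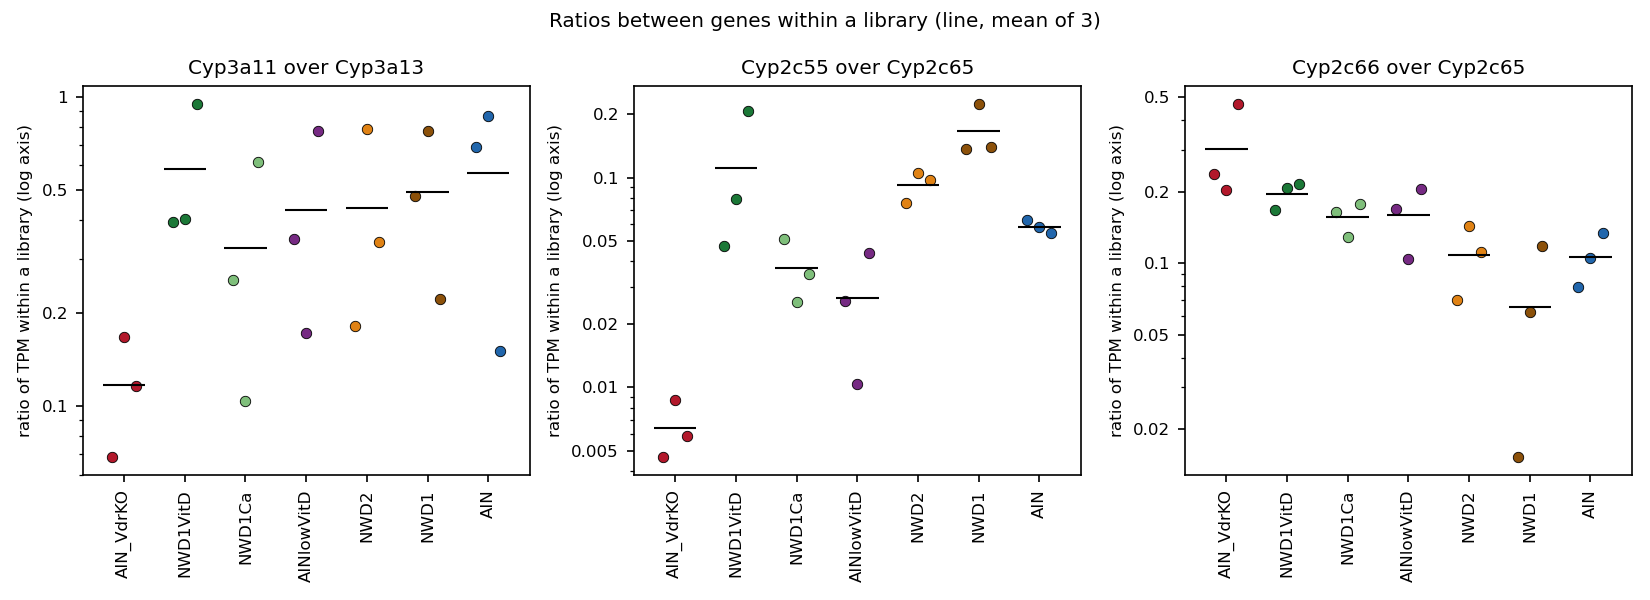
Ratios of TPM between 2 genes of the same library (vertical log axis), by group; points are libraries and lines means of 3. The libraries labelled AIN_VdrKO have the 3 lowest values of Cyp2c55 over Cyp2c65 (0.00465 to 0.0087), while their values of Cyp2c66 over Cyp2c65 (0.203 to 0.470) include the highest.

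In NWD1 against AIN, 9 of 10 fitted changes were negative (median -1.81, against -0.04 over all genes), yet none of the 10 genes was called by edgeR, where 0.766% of all genes were. Unadjusted p-values were under 0.05 for 7 of the 10, and for 2436 of the 16050 genes tested. DESeq2 called 3 of the 10, and limma on log2 TPM called 0. Without the filter on low counts, edgeR called 8 of the 10. Shares of all genes called under these alternatives are not given here, so these counts are not read as particular to the 10 genes. Ugt2b5 was at 2.43, 4.84 and 9.02 CPM in NWD1 and at 41.4, 32.7 and 41.4 CPM in AIN, a clear gap (log2 fold change -2.76 ± 0.66, edgeR, adjusted p = 0.0506). Nr1i2 was at 14.7, 17.9 and 17.9 CPM in NWD1 and at 32.0, 28.5 and 49.4 CPM in AIN (-1.09 ± 0.26, edgeR, adjusted p = 0.0506). Both had an adjusted p under the threshold without AIN 2 (Ugt2b5 -2.97, 0.0485; Nr1i2 -1.26, 0.0376) and by DESeq2 (0.00121 and 0.00665). Cyp3a13 was at 28.97, 49.7 and 123 CPM in NWD1 and at 402, 366 and 428 CPM in AIN (-2.55 ± 0.70, edgeR, adjusted p = 0.0776). Cyp3a11 had the largest fitted change, -3.15, with an edgeR adjusted p = 0.204. Cyp2c55 stood alone above 0, at 0.24 ± 0.71. Libraries were apart and lower in CPM for 8 of the 10 genes, against 10.9% of all genes.

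Enterocyte markers were lower in sum in NWD1 than in AIN. Their sum was 6131 to 13916 TPM in NWD1 and 39995 to 49539 TPM in AIN, 4 of 29 fell, and their median log2 fold change was -2.18. Per 1000 of that sum, Cyp3a13 was at 3.55 to 9.90 in NWD1 and 4.82 to 8.99 in AIN, and Ugt2b5 at 0.467 to 1.14 in NWD1 and 0.779 to 1.37 in AIN, both overlapping. On the same scale Nr1i2 was at 1.66 to 2.26 in NWD1 and 0.444 to 1.201 in AIN, and Cyp2c55 at 1.18 to 4.24 in NWD1 and 0.21 to 0.289 in AIN, both higher in NWD1 without overlap. Cyp2c65, lower in CPM, was also higher in NWD1 on this scale, at 8.49 to 18.8 against 3.35 to 5.31 in AIN. The remaining genes overlapped. Stem cell markers summed to 6954 to 11608 TPM in NWD1 and 1650 to 4388 TPM in AIN, and none of 15 was called. The part of either list in the results was not tested.

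NWD2 against AIN gave no call among the 10 genes or among all genes (0% of 16050), no unadjusted p under 0.05 among the 10 (1099 over all genes), and no call among the 10 by DESeq2 or limma. Fitted changes lay between -0.41 (Cyp3a11) and 0.69 (Cyp2b10), and libraries overlapped for every gene. Without AIN 3, Abcb1a was called as higher (1.84, edgeR, adjusted p = 0.0338). NWD2 against NWD1 had 10 positive fitted changes (median 2.07) and no call, where 0.00623% of all genes were called. Unadjusted p-values were under 0.05 for 9 of the 10, and for 1717 of the 16050 genes tested. DESeq2 called 2 of the 10 and limma 0. Without the filter on low counts, edgeR called most of the 10 genes in NWD2 against NWD1. Shares of all genes called under these alternatives are not given here either. Ugt2b5 was at 10.2, 65.9 and 86.0 CPM in NWD2 and at 2.43, 4.84 and 9.02 CPM in NWD1, barely apart in CPM (3.33 ± 0.67, edgeR, adjusted p = 0.113). Libraries were apart and higher for 2 of the 10 genes, Ugt2b5 and Nr1i2, against 4.97% of all genes. The low library for Ugt2b5 is NWD2 1, and without it Ugt2b5 (3.80, adjusted p = 0.0105) and Cyp3a13 (2.89, 0.0212) were called. Without NWD1 3, Ugt2b5 (3.63, 0.0353) and Abcb1a (2.28, 0.045) were. NWD2 1 was also low in enterocyte markers, whose sum was between 10748 and 55716 TPM over the NWD2 libraries.

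The 3 comparisons across the sets of libraries had 30.5% to 40.5% of all genes called, and the counts among the 10 genes are read against those shares. NWD1VitD against NWD1 had the most, 6 of 10 higher and none lower, where 40.5% of all genes were called and 19.9% as higher. In CPM the libraries of 9 of the 10 genes were apart and higher, against 25% of all genes. Abcb1a was at 121, 155 and 160 CPM in NWD1VitD and at 16.4, 23.3 and 64.9 CPM in NWD1 (log2 fold change 2.18 ± 0.52, edgeR, adjusted p = 0.00283). Ugt2b5 was at 32.0, 34.7 and 9.72 CPM in NWD1VitD and at 2.43, 4.84 and 9.02 CPM in NWD1, and NWD1VitD 3 nearly touched NWD1 3 (2.30 ± 0.65, edgeR, adjusted p = 0.00871). Cyp2c66 was at 21.2, 32.7 and 37.0 CPM in NWD1VitD and at 0.904, 7.10 and 8.22 CPM in NWD1 (2.50 ± 0.76, edgeR, adjusted p = 0.0141). These 3 kept their calls whichever single library was left out and lost them without both NWD1 1 and NWD1 2, the libraries rich in spike-ins (adjusted p = 0.19 to 0.211).

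Cyp3a13 (1.97 ± 0.69), Cyp3a25 (2.33 ± 0.87) and Cyp2b10 (2.91 ± 1.13) were called at adjusted p = 0.029 to 0.0474 by edgeR in NWD1VitD against NWD1. Their calls were lost without NWD1 1, NWD1 2, NWD1VitD 2 or NWD1VitD 3, which each left 3 of 10 genes called, and without NWD1 3 for Cyp3a25 and Cyp2b10. On the TPM scale of the deposited values, the libraries of these 2 groups overlapped for all 6 genes and limma called none of them. Called lower on log2(TPM + 1) were 2 others, Cyp2c55 (-1.32) and Nr1i2 (-0.997). Over all genes 9131 were called lower on that scale and 662 higher, so lower calls were general there. Enterocyte markers summed to 42296 to 72861 TPM in NWD1VitD and 6131 to 13916 TPM in NWD1, and 17 of 29 rose. Stem cell markers summed to 432 to 1365 TPM in NWD1VitD and 6954 to 11608 TPM in NWD1, and 7 of 15 fell; Lgr5 itself was lower (-1.71 ± 0.50, edgeR, adjusted p = 0.0117). Paneth cell markers summed to 38380 to 133793 TPM in NWD1VitD and 17705 to 43069 TPM in NWD1, and 5 of 10 rose and 1 fell. Per 1000 of the summed enterocyte markers, Abcb1a was at 0.348 to 0.558 in NWD1VitD and 1.08 to 2.81 in NWD1, lower and without overlap. Cyp3a13 (1.02 to 1.86 in NWD1VitD, 3.55 to 9.90 in NWD1) and Ugt2b5 (0.0987 to 0.381 in NWD1VitD, 0.467 to 1.14 in NWD1) were lower and apart as well. So were Cyp2c55, Cyp2c65 and Nr1i2, while Cyp3a11, Cyp3a25, Cyp2c66 and Cyp2b10 overlapped. The part of the markers in the result was not tested.

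NWD1Ca against NWD1 had 2 of 10 genes higher and none lower, where 30.5% of all genes were called and 15.6% as higher. In CPM, 4 of the 10 genes were apart and higher, against 26.1% of all genes. Abcb1a was at 150, 174 and 85.9 CPM in NWD1Ca and at 16.4, 23.3 and 64.9 CPM in NWD1 (1.77 ± 0.53, edgeR, adjusted p = 0.0163). Ugt2b5 was at 43.0, 21.4 and 27.6 CPM in NWD1Ca and at 2.43, 4.84 and 9.02 CPM in NWD1 (2.14 ± 0.68, edgeR, adjusted p = 0.0234). Both gaps hold for CPM and both genes overlapped in TPM. Abcb1a was lost without NWD1 2 (adjusted p = 0.0512) or NWD1Ca 2 (0.0577), and Ugt2b5 without NWD1 1 (0.0576), NWD1 3 (0.0578) or NWD1Ca 1 (0.0813). Nr1i2 was at 0.31 ± 0.28 by edgeR and at -0.93 on the log2(TPM + 1) scale, a change of sign with the scaling. Of 29 enterocyte markers 10 rose, and their sum was 34999 to 61294 TPM in NWD1Ca and 6131 to 13916 TPM in NWD1. Stem cell markers summed to 602 to 942 TPM in NWD1Ca and 6954 to 11608 TPM in NWD1, and 5 of 15 fell; Lgr5 was at -1.35 ± 0.52 (edgeR, adjusted p = 0.0546). Tuft cell markers summed to 193 to 358 TPM in NWD1Ca and 834 to 2673 TPM in NWD1, and 3 of 8 fell. Of 10 Paneth cell markers 1 rose and 1 fell. The part of these lists in the result was not tested.

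AINlowVitD against AIN had 1 of 10 genes higher, where 31.3% of all genes were called and 15.1% as higher. That gene was Abcb1a, at 271, 132 and 143 CPM in AINlowVitD and at 45.7, 35.3 and 102 CPM in AIN, without overlap, as for 21.7% of all genes in that direction (1.43 ± 0.51, edgeR, adjusted p = 0.0379). Its TPM overlapped, at 44.3, 22.9 and 22.7 in AINlowVitD and 14.6, 12.3 and 46.6 in AIN. The call was lost without AIN 1, AIN 2, AINlowVitD 1 or AINlowVitD 3 (adjusted p = 0.0983 to 0.162), and it was 0.26 (adjusted p = 0.756) without AIN 1, AIN 2 and NWD1 1. On the TPM scale limma called 4 others as lower, namely Cyp2c55, Cyp2c65, Ugt2b5 and Nr1i2. Over all genes 7379 were called lower on log2(TPM + 1) and 721 higher, so lower calls were general there. Nr1i2 was at -0.59 ± 0.26 by edgeR (adjusted p = 0.0841), and at -0.79 without AIN 2 (adjusted p = 0.0331). Enterocyte markers summed to 27114 to 84910 TPM in AINlowVitD and 39995 to 49539 TPM in AIN, and 1 of 29 rose. Of 10 Paneth cell markers 4 rose, and of 15 stem cell markers none was called, though these summed to 376 to 1126 TPM in AINlowVitD and 1650 to 4388 TPM in AIN. Their part in the result was not tested.

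Within the set of NWD1VitD, NWD1Ca and AINlowVitD no difference among the 10 genes passed the test. The 3 comparisons among these groups called 0 of 10 genes and 0% of all genes, each with an adjusted p of 1 by edgeR, and DESeq2 and limma called 0 of the 10. Without the filter on low counts, edgeR called between 1 and 3 of the 10 genes in each of the 3 comparisons. The share of all genes called without that filter is not given here. Unadjusted p-values were under 0.05 for 1 gene in NWD1VitD against NWD1Ca and 1 in NWD1VitD against AINlowVitD, in both cases Cyp2c55, and for 0 in NWD1Ca against AINlowVitD. Over all genes they numbered 372, 467 and 209 in the same order of comparisons. Cyp2c55 was at 6.13, 12.7 and 36.6 CPM in NWD1VitD, at 6.83, 2.00 and 4.23 CPM in NWD1Ca and at 4.48, 0.908 and 7.57 CPM in AINlowVitD. The fitted difference was 1.76 ± 0.76 for NWD1VitD against NWD1Ca and 1.98 ± 0.71 against AINlowVitD, with overlapping libraries. Abcb1a had fitted differences of 0.41 ± 0.54, -0.55 ± 0.50 and -0.14 ± 0.50 for NWD1VitD against NWD1Ca, NWD1Ca against AINlowVitD and NWD1VitD against AINlowVitD.

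**Figure D4:**
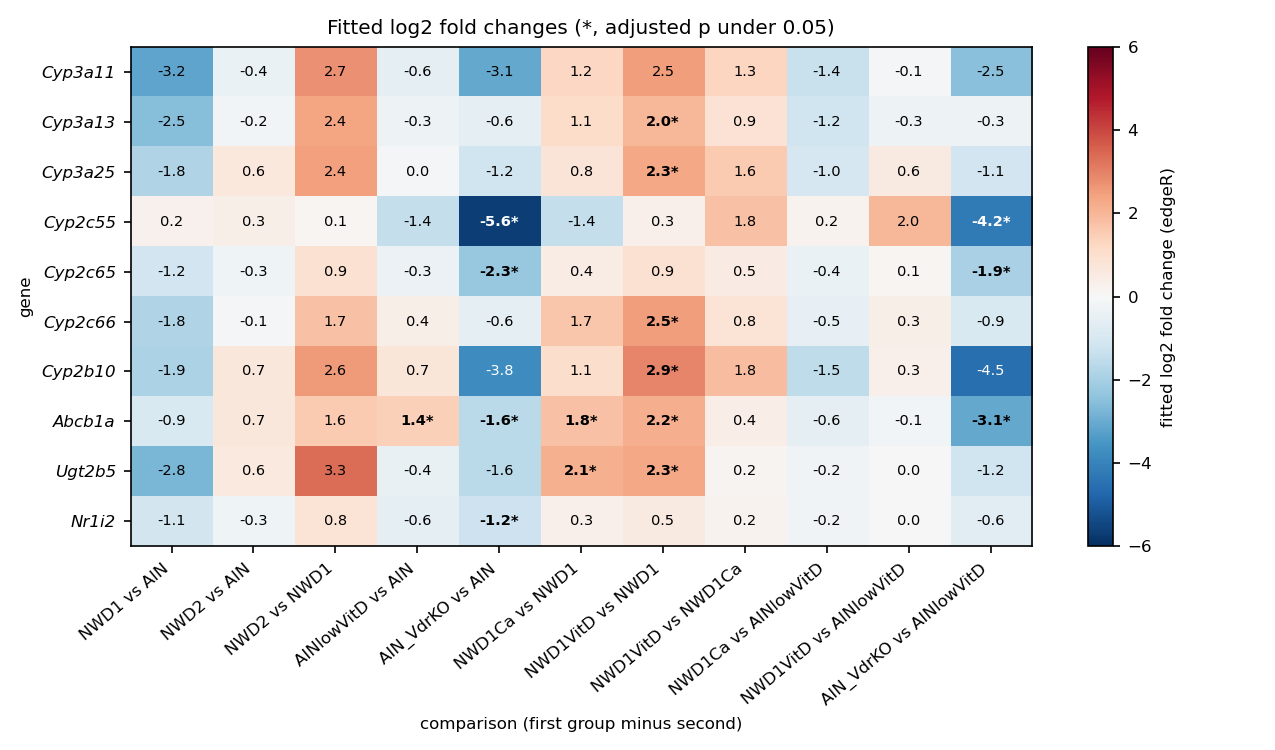
Fitted log2 fold change of each gene (rows) in the 11 comparisons (columns, first group minus second); red is higher and blue lower, and asterisks mark an adjusted p under 0.05. Calls of higher RNA appear only in AINlowVitD against AIN, NWD1Ca against NWD1 and NWD1VitD against NWD1, and calls of lower RNA only in the 2 comparisons of the libraries labelled AIN_VdrKO.

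Other genes of xenobiotic handling were counted in 4 lists, read against 5.09% of all genes lower and 7.44% higher in the libraries labelled AIN_VdrKO against AIN. In the libraries labelled AIN_VdrKO against AIN, 12 of 44 tested phase I enzymes fell and none rose (median -1.21), among them Cyp2c68 (-2.31 ± 0.49, adjusted p = 0.00474), the carboxylesterase gene Ces2a (-2.09 ± 0.47, adjusted p = 0.00654), Cyp2e1 (-2.17 ± 0.49, adjusted p = 0.00737) and Ces1d (-2.62 ± 0.63, adjusted p = 0.00995). Of 40 phase II enzymes 6 fell and none rose (median -0.53), among them the glucuronosyltransferase genes Ugt2a3 (-1.68 ± 0.44, adjusted p = 0.0179) and Ugt1a1 (-1.76 ± 0.52, adjusted p = 0.0327). Of 19 transporters 4 fell and none rose (median -0.63), among them the uptake carrier gene Slco2b1 (-1.64 ± 0.44, adjusted p = 0.0199) and the efflux pump gene Abcg2 (-1.01 ± 0.29, adjusted p = 0.0296). Of 16 nuclear receptors and partners 4 rose and 2 fell. Arnt, the partner of the aryl hydrocarbon receptor, fell (-2.48 ± 0.40, adjusted p = 0.000596), and the corepressor gene Ncor1 rose (1.52 ± 0.25, adjusted p = 0.000694). Arnt was also lower, and Ncor1 higher, in all 3 comparisons across the sets of libraries (Arnt -2.88, -2.81 and -2.72; Ncor1 1.37, 1.55 and 1.46 for AINlowVitD against AIN, NWD1Ca against NWD1 and NWD1VitD against NWD1). These 2 genes moved in the same directions in the comparison of the libraries labelled AIN_VdrKO with AIN and in those across the sets. In TPM the libraries overlapped for Ncor1 in all 3 comparisons across the sets, and stayed apart for Arnt. Some of these comparisons share AIN or NWD1 libraries, and a cause was not tested. The median over all genes was -0.01 in the libraries labelled AIN_VdrKO against AIN.

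In NWD1 against AIN, Nr1i3, which encodes CAR, fell (4.26 CPM in NWD1 and 21.4 CPM in AIN on average; -2.31 ± 0.53, edgeR, adjusted p = 0.0455). The pump gene Abcg2 (-1.35 ± 0.28), the sulfotransferase gene Sult1b1 (-2.44 ± 0.50) and the glutathione transferase gene Gsta1 (-3.59 ± 0.75) fell at an adjusted p of 0.03 each. In all, 1 of 44 phase I enzymes, 3 of 40 phase II enzymes, 1 of 19 transporters and 1 of 16 receptors and partners fell. Of all genes tested 0.766% were called in NWD1 against AIN, in either direction. Sult1b1 and Gsta1 were higher both in NWD1VitD against NWD1 (2.47 ± 0.49 and 4.19 ± 0.75) and in NWD1Ca against NWD1 (2.05 ± 0.52, adjusted p = 0.00694, and 3.69 ± 0.78, adjusted p = 0.00223). In NWD1VitD against NWD1, 12 of 40 phase II enzymes rose and 2 fell, 14 of 44 phase I enzymes rose and 4 fell, and 3 of 19 transporters rose and 2 fell, where 19.9% of all genes rose and 20.6% fell. In NWD1Ca against NWD1, 9 of 40 phase II enzymes rose and 1 fell, 6 of 44 phase I enzymes rose and 1 fell, and 0 of 19 transporters rose and 4 fell, where 15.6% of all genes rose and 14.9% fell. In AINlowVitD against AIN, 5 of 44 phase I enzymes fell and none rose, 2 of 40 phase II enzymes rose and 5 fell, and 3 of 19 transporters fell, where 15.1% of all genes rose and 16.3% fell. Of the 16 receptors and partners, 3 rose and 4 fell in NWD1VitD against NWD1, 3 rose and 3 fell in NWD1Ca against NWD1, and 3 rose and 3 fell in AINlowVitD against AIN. Vdr was among those that fell, at -1.78 (adjusted p = 0.000888), -1.62 (0.00449) and -1.08 (0.0278) by edgeR in the same order of comparisons. In the libraries labelled AIN_VdrKO against AINlowVitD, 2 of 44 phase I enzymes (Cyp2c68 and Cyp2c29) and 2 of 40 phase II enzymes (Gsta4 and Gsta1) fell. Of all genes tested 2.38% fell there. Cyp2c29 was near the floor. In the other 5 comparisons no gene of the 4 lists was called.

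Across libraries the 10 genes followed enterocyte markers to unequal degrees. The correlation of log2 CPM with the log2 summed CPM of the 29 markers, after taking out group means, was 0.93 for Cyp3a13, 0.89 for Cyp3a25, 0.81 for Cyp3a11 and Ugt2b5, 0.79 for Cyp2b10, and 0.59 to 0.68 for the others, with Nr1i2 lowest. Over all 21 libraries with group means left in, Cyp2c55 had the lowest value (0.15) and Cyp3a13 the highest (0.84). These are descriptions over 21 libraries that differ in library size and set. Among the 10 genes, the closest pair within groups was Cyp3a13 and Cyp3a25 (0.96), then Cyp3a11 and Cyp3a25 (0.90). Abcb1a and Nr1i2 correlated with each other at 0.80 within groups, and each at 0.21 to 0.22 with Cyp3a11.

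**Figure D5:**
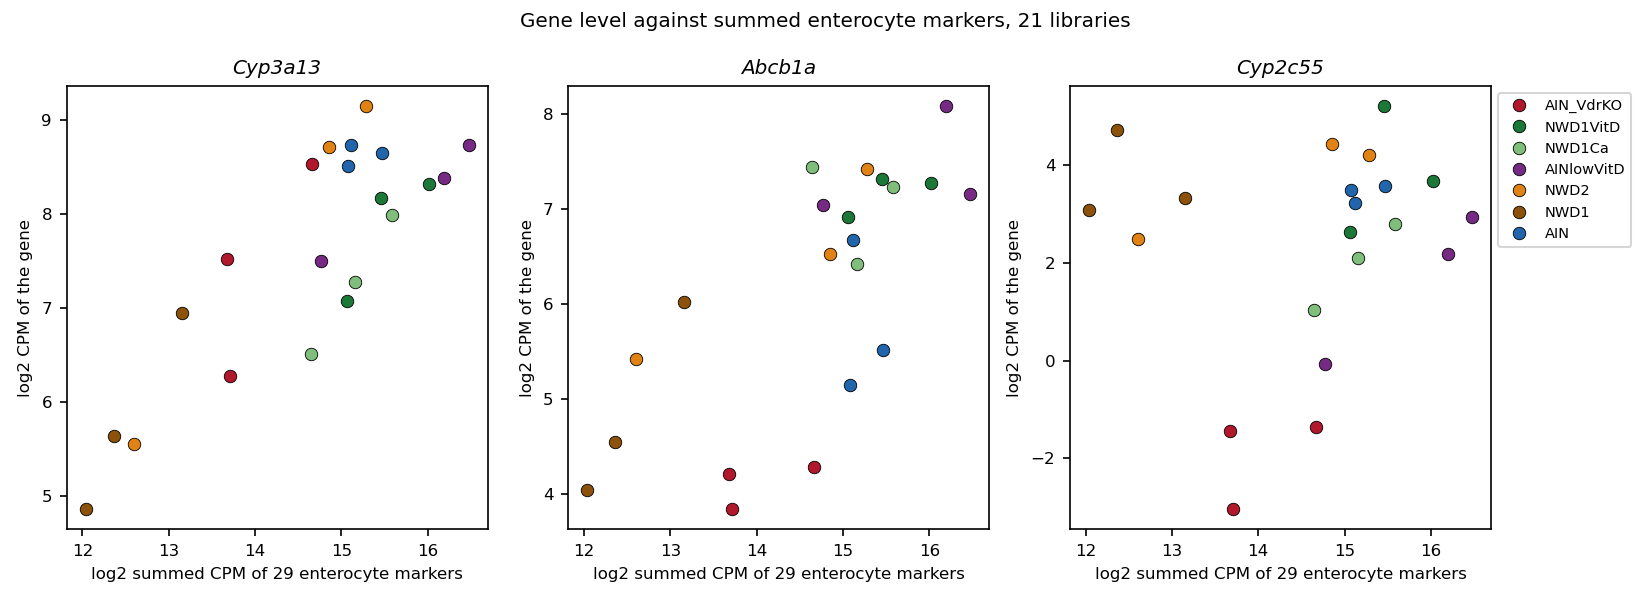
Log2 CPM of Cyp3a13, Abcb1a and Cyp2c55 (vertical) against the log2 summed CPM of 29 enterocyte markers (horizontal), with 1 point per library coloured by group. Cyp3a13 climbs with the markers (within-group correlation 0.93), while Cyp2c55 in the libraries labelled AIN_VdrKO lies below every other library.

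The genes outside the 10 that were most like each of them, by correlation of log2 CPM over 21 libraries, are named next as a description. Predicted genes and those with clone-type names only were left out. For Cyp3a13 they were Gpt, which encodes alanine aminotransferase (r = 0.97), Gsdmd (0.96) and the brush border protease gene Mep1b (0.96). The trehalase gene Treh led for both Cyp3a25 (0.96) and Cyp3a11 (0.91). Dio1 and the protease gene Mep1a came next for both Cyp2c55 (0.88 and 0.87) and Cyp2c65 (0.91 and 0.89), behind Serpina1b (0.89) and Pbld2 (0.94). For Cyp2c66 the closest was Aldh1a7 (0.88), for Ugt2b5 Cyp2c44 (0.94), for Cyp2b10 Cyp2c68 (0.89), for Abcb1a Svip (0.93) and for Nr1i2 Gpr39 (0.91).

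In the term for sex of the common fit (11 male and 10 female libraries, with group in the model) none was called, where 0.0312% of all genes were, and the fitted differences of male minus female lay between -0.71 (Ugt2b5) and 0.49 (Cyp2b10), each with an adjusted p of 0.9997 by edgeR; 0 unadjusted p-values were under 0.05. Reads of close relatives could be split or lost in counting. Of the 50-base words in the annotated transcripts, 41.7% of those of Ugt2b5 also occur in transcripts of another gene, 26.8% for Cyp3a25, 24.0% for Cyp2c66, 20.6% for Cyp2c65, 17.0% for Abcb1a (Abcb1b and Abcb4), 14.8% for Cyp3a11, 9.69% for Cyp2b10, 0.514% for Cyp2c55, and 0% for Cyp3a13 and Nr1i2. Values of single genes with high shares are the less certain ones.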

How the data were processed

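Bulk RNA of sorted Lgr5-EGFP cells was read from 21 libraries made with SMART-Seq v4 and Nextera XT, a protocol that does not mark strand. The authors deposited raw counts per gene for 37310 genes and 92 spike-ins, and the submitters' processing notes name STAR 2.4.2a, HTSeq 0.6.1, edgeR and build mm9. The authors also deposited TPM values, scaled for transcript length and library, which were used for levels and ratios. All columns matched a labelled sample.

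From the counts, spike-ins were removed and genes filtered with filterByExpr, which left 16050. edgeR 4.0.16 (R 4.3.3) fitted all libraries with TMM factors, group means and a term for sex, a quasi-likelihood F test and Benjamini-Hochberg adjustment over all genes tested; a gene was called at an adjusted p under 0.05. SE is the fold change over the root of F. CPM are TMM-scaled, with a prior count of 2 on the log2 scale. Reads carry no molecular identifiers, and depth differed between libraries. Alternatives were DESeq2 1.42.0, limma 3.58.1 on log2(TPM + 1) and log2(TPM + 0.1) for genes at 1 TPM in 3 libraries, other scaling and filters, fewer groups and libraries left out. The comparison with AINlowVitD and the sex term were chosen after seeing the data, and the members and lists with earlier results of these data known. All 10 genes are described; of the 4 pathway lists, the 4 called genes with the smallest p per list and comparison could be named. The values of 1 gene of these lists are not reported here.

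Same-numbered libraries did not deviate together in all 3 pairs of any comparison, so no block was used. Promoters are RefSeq sequences of GRCm38.p6 matched by symbol; no coordinates were moved from mm9.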

Additional observations from a re-analysis of the deposited data

How the results depend on the processing

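Of 1760 values of single genes under alternatives, 7 changed sign with a call on one side, 131 changed sign with none, 89 lost a call and 85 gained one. Calls among the 10 genes without the filter on low counts were 8 in NWD1 against AIN, 7 in NWD2 against NWD1, 2 in AINlowVitD against AIN, 8 in AIN_VdrKO against AIN, 7 in NWD1Ca against NWD1, 3 in NWD1VitD against NWD1Ca, 2 in NWD1Ca against AINlowVitD, 1 in NWD1VitD against AINlowVitD and 7 in AIN_VdrKO against AINlowVitD. Shares of all genes called under each single alternative are not given here, so none of these counts is read as particular to the 10 genes. NWD1 against AIN had 2 with no term for sex and 3 by DESeq2, and NWD2 against NWD1 had 2 by DESeq2. With limma on log2(TPM + 1), log2(TPM + 0.1) and without its filter, AINlowVitD against AIN had 4, 4 and 3 and NWD1VitD against NWD1 had 2, 1 and 1; AIN_VdrKO against AINlowVitD had 0 without that filter. Nr1i2 turned to -0.93, -0.99 and -0.93 in NWD1Ca against NWD1 and to -0.997, -1.07 and -0.997 in NWD1VitD against NWD1 on these scales, and Cyp2c55 to -1.32 in NWD1VitD against NWD1 on the first of them. With only the 2 groups, NWD1Ca against NWD1 had 1 and AIN_VdrKO against AINlowVitD 0. Without AIN 1, AIN 2 and NWD1 1, NWD1Ca against NWD1 had 1 and NWD1VitD against NWD1 had 2; without NWD1 1 and NWD1 2 both had 0. Leaving out 1 library at a time gave 0 to 2 calls in NWD1 against AIN, 0 to 1 in NWD2 against AIN, 0 to 2 in NWD2 against NWD1, 0 to 1 in AINlowVitD against AIN, 2 to 4 in AIN_VdrKO against AIN, 1 to 2 in NWD1Ca against NWD1, 3 to 6 in NWD1VitD against NWD1 and 1 to 4 in AIN_VdrKO against AINlowVitD. With a replicate block, which the labels do not ground, AIN_VdrKO against AIN had 4 calls, with Abcb1a lost (-1.45, edgeR adjusted p = 0.0573) and Cyp2b10 gained (-4.10, 0.0434), and AIN_VdrKO against AINlowVitD had 4, with Cyp2b10 gained (-4.77, 0.0408); it changed no other call among the 10 genes, and between 0 and 4 of 6 libraries correlated best with their own number. Calls over all genes and their range under alternatives were 123 (0 to 969) in NWD1 against AIN, 0 (up to 840) in NWD2 against AIN, 1 (0 to 842) in NWD2 against NWD1, 5030 (3210 to 8459) in AINlowVitD against AIN, 2011 (383 to 3701) in AIN_VdrKO against AIN, 4903 (2524 to 8683) in NWD1Ca against NWD1, 6504 (4864 to 10380) in NWD1VitD against NWD1, 492 (4 to 6358) in AIN_VdrKO against AINlowVitD, and 0 in the other 3 (up to 117, 90 and 68). On log2(TPM + 1) they split into 721 higher and 7379 lower in AINlowVitD against AIN (edgeR 2416 and 2614), 781 and 7902 in NWD1Ca against NWD1 (2507 and 2396), 662 and 9131 in NWD1VitD against NWD1 (3198 and 3306), 617 and 749 in AIN_VdrKO against AIN (1194 and 817), 95 and 32 in NWD1 against AIN (17 and 106) and 5176 and 345 in AIN_VdrKO against AINlowVitD (110 and 382). The cause of these changes was not tested.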
